A study of Homo sapiens with 6 samples.

Results

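The genes described here are 8 RNA-binding proteins that set how transcripts are spliced in epithelial and mesenchymal cells: ESRP1, ESRP2, RBM47, RBFOX2, QKI, MBNL1, MBNL3 and PTBP1. They were chosen by name, with earlier results of these data known. Each was read from every probe set whose platform annotation gave that symbol and no other. By this rule 7 of the 8 genes were represented, among 19775 genes with such a probe set in the series. The 7 genes had 35 probe sets, of which 26 passed the filter on low signal. The only probe set of ESRP2 carried a second symbol, MIR6773, so no value is given for ESRP2. Another 5 probe sets carried PTBP1 together with MIR4745 and were not used.

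Alternative splicing joins different exons of one gene into different messenger RNAs. During epithelial-mesenchymal transition, in which cells lose their junctions and become motile, many exons switch together. ESRP1 and ESRP2 are epithelium-restricted proteins that maintain the epithelial exon pattern, and RBM47 is another epithelial RNA-binding protein. RBFOX2 and QKI act on many exons used in mesenchymal cells, the muscleblind proteins MBNL1 and MBNL3 regulate exons that switch with differentiation, and PTBP1 is a widely expressed repressor of exon inclusion.

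The data came from 6 Affymetrix expression arrays, 2 for each of 3 human cell lines. PC-3 is an established line from a prostate carcinoma metastasis. TEM4-18 and TEM2-5 were each derived from PC-3 by recovering cells that had crossed a monolayer formed from human lung microvascular endothelium, and TEM2-5 came from a repeat of that experiment. Each derived line is a single isolate, and all 3 lines were grown in DMEM/F12 medium with fetal bovine serum and carried no labelled treatment. RNA was extracted with TRIzol and purified on columns. Values are MAS5 signals, an intensity in array units whose 2% trimmed mean was scaled to between 1500.175 and 1500.18 on the 6 arrays. The median signal was between 267 and 317. Fold changes are differences of log2(signal + 51.8), where 51.8 is the 20th percentile of all signals, so they understate the change of a dim probe set. They were tested with limma, the p-values being adjusted by the Benjamini-Hochberg method over the 32576 probe sets that passed the filter, with a threshold of 0.05. Both comparisons with PC-3 use the same 2 PC-3 arrays.

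Promoter windows of RBM47 and MBNL3, which were both lower in both derived lines, are shown because the E-box hexamers CAGGTG and CAGGTA are bound by repressors of epithelial genes such as ZEB1 and SNAI1. Each window holds the 250 bases before an annotated start site, from RefSeq on GRCh38.p14. RBM47 had a match in 2 of 4 windows, MBNL3 in 1 of 4, MBNL1 in 0 of 3 and PTBP1 in 0 of 2. No window was searched for ESRP1, which was also lower in both derived lines, or for RBFOX2 and QKI. Only windows with a match are printed. The capitals mark the match, written on the gene's own strand, where CACCTG is the reverse complement of CAGGTG. The first RBM47 window below lies at chr4:40514582-40514831 on the minus strand, with the match 208 bases before the start site. The second RBM47 window lies at chr4:40630595-40630844 on the minus strand, with the match 187 bases before the start site. The MBNL3 window lies at chrX:132413609-132413858 on the minus strand, with the match 196 bases before the start site.
RBM47 first window: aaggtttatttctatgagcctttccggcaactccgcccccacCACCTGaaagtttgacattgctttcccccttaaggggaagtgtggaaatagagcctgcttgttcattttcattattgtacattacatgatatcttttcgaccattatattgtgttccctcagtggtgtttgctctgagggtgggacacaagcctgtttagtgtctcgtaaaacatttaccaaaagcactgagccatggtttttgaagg
RBM47 second window: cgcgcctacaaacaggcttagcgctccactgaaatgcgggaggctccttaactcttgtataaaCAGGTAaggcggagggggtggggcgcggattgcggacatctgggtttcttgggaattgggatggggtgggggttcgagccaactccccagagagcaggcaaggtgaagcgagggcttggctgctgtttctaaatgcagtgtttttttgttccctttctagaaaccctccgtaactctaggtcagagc
MBNL3 window: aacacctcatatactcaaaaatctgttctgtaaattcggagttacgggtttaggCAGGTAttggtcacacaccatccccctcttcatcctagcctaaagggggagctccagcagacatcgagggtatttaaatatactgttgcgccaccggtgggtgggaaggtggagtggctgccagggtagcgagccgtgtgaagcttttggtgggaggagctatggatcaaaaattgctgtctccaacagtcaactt
Among 35116 windows of this length, 17.5% held CAGGTG or CACCTG, 7.99% held CAGGTA or TACCTG, and 23.8% held either. With 2 to 4 windows a gene, the counts were not tested against these shares. The matches describe letters only, and binding was not measured.

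The epithelial regulators fell in both derived lines, further in TEM4-18 than in TEM2-5, while RBFOX2, QKI and MBNL1 rose in both and were not called different between them. The QKI rise was small, and none of its calls held in every alternative processing. In TEM4-18, 18 of the 26 tested probe sets passed the threshold, 11 higher and 7 lower. Over all tested probe sets of that comparison, 12.9% were called higher and 12.9% lower. In TEM2-5, 20 of the 26 passed, 13 higher and 7 lower, beside 8.73% higher and 7.67% lower over all probe sets. In both comparisons the lower counts include RBM47 229440_at and 229439_s_at, which passed the filter only through their PC-3 signals. Between TEM4-18 and TEM2-5, 5 of the 26 passed and all 5 were lower in TEM4-18, beside 0.359% higher and 1.43% lower over all probe sets. With each gene read from its brightest probe set, 3 of the 7 genes were higher and 3 lower in TEM4-18, where 13.3% of 13557 tested genes were higher and 16.1% lower. The counts were also 3 higher and 3 lower in TEM2-5, beside 9.04% and 10.1% of all genes. Between the derived lines, 0 were higher and 3 were lower in TEM4-18, beside 0.494% and 2.27% of all genes. The genes were chosen with earlier results known, so these counts and shares describe the set and do not test it. Leaving out the second PC-3 array reduced the TEM2-5 count from 20 to 11, and leaving out the second TEM2-5 array reduced it to 12. Without the mean-variance trend in the variance model, 11 probe sets passed in TEM4-18 and 9 in TEM2-5.

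**Figure D1:**
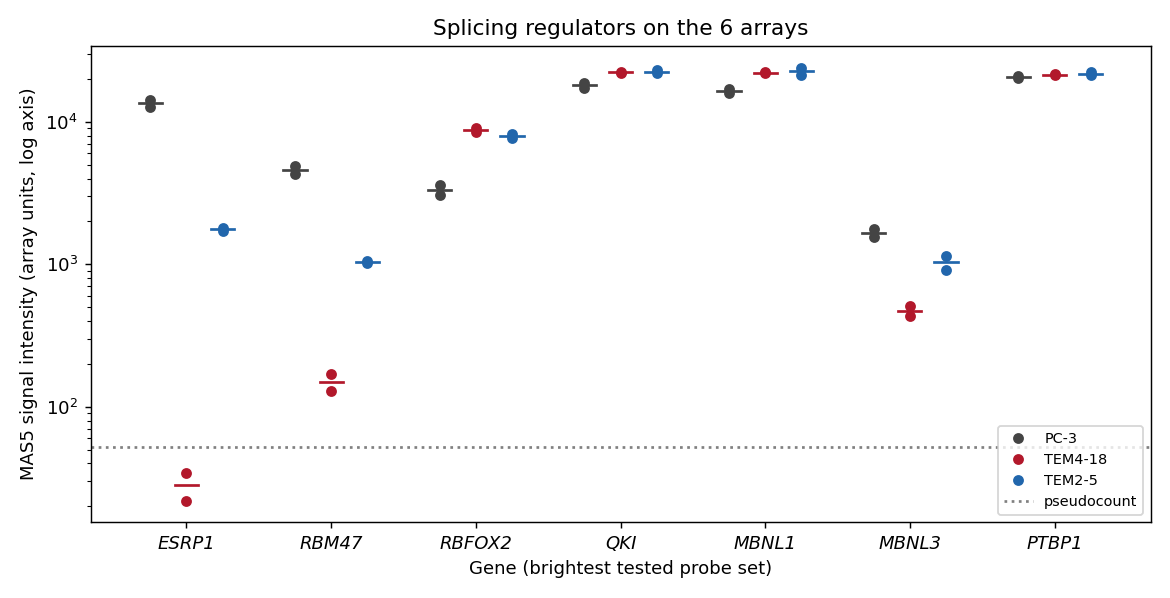
MAS5 signal (array units, log axis) of the brightest tested probe set of each of the 7 genes, with 1 point per array and a bar at the mean of 2 arrays. The PC-3, TEM2-5 and TEM4-18 points of ESRP1, RBM47 and MBNL3 lie in 3 separate steps downwards, whereas the points of the derived lines lie close together for RBFOX2, QKI and MBNL1; the dotted line is the pseudocount of 51.8.

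ESRP1, which promotes epithelial exons in genes such as FGFR2 and CD44, gave the largest change of the 7 genes. Its brightest probe set, 219121_s_at, read 12778 and 14293 in PC-3, 22.0 and 34.3 in TEM4-18, and 1720.2 and 1803 in TEM2-5. The lines did not overlap, and the TEM2-5 mean was 13.0% of the PC-3 mean. Both TEM4-18 signals lay below the pseudocount of 51.8, so the size of every fold change that involves TEM4-18 depends on it. In TEM4-18 the log2 fold change was -7.41 ± 0.15 (SE, adjusted p = 5.71e-10). In TEM2-5 it was -2.90 ± 0.15 (adjusted p = 2.58e-06), at rank 15 from the lowest of 13557 genes. The difference between the derived lines was itself past the threshold, at -4.51 ± 0.15 (adjusted p = 9.06e-08). The second ESRP1 probe set, 225846_at, read 13161 and 11453 in PC-3, 12.5 and 10.5 in TEM4-18, and 1598 and 1469 in TEM2-5. It therefore showed the same order of the lines, with log2 fold changes of -7.61 in TEM4-18 and -2.96 in TEM2-5. With a pseudocount of 1 the TEM4-18 changes on the 2 probe sets were -8.89 and -9.95, and the differences between the derived lines were -5.95 and -6.95, while the TEM2-5 changes were -2.94 and -3.0. In these bulk RNA samples, fewer cells with ESRP1 and less ESRP1 RNA per cell cannot be told apart.

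RBM47, an epithelial RNA-binding protein that acts on splicing and on messenger RNA stability, followed the same order at higher residual levels. Its brightest probe set, 218035_s_at, read 4865 and 4278 in PC-3, 171 and 129 in TEM4-18, and 1049 and 1019 in TEM2-5. TEM4-18 kept 3.28% of the PC-3 mean and TEM2-5 kept 22.6%. The log2 fold change was -4.52 ± 0.17 in TEM4-18 (adjusted p = 6.17e-08) and -2.09 ± 0.17 in TEM2-5 (adjusted p = 3.77e-05). The derived lines differed by -2.44 ± 0.17 (adjusted p = 3.38e-05), TEM4-18 being lower. A second probe set, 222496_s_at, read 2626 and 2449 in PC-3, 45.5 and 65.7 in TEM4-18, and 581 and 651 in TEM2-5, and it too separated all 3 lines. The dimmer probe set 229440_at read 591 and 446 in PC-3, 35.9 and 99.2 in TEM4-18, and 99.4 and 137 in TEM2-5. The probe set 229439_s_at read 700.4 and 521 in PC-3, 13.8 and 26.9 in TEM4-18, and 66.0 and 23.1 in TEM2-5. Both were called lower in each derived line, with changes from -3.19 to -1.74, but neither was called between TEM4-18 and TEM2-5 (adjusted p = 0.711 and 0.855). Their TEM4-18 and TEM2-5 means were 67.5 and 118 on 229440_at and 20.4 and 44.5 on 229439_s_at, all below the filter of 177.8. They passed the filter only through PC-3, which favours a lower call, so these calls add no separate support. They could be tested in 12 and 11 alternatives, against 14 for 222496_s_at. With a pseudocount of 1 their TEM2-5 calls were lost (adjusted p = 0.0750 and 0.0728). The TEM2-5 call of 229440_at was also lost without the filter (adjusted p = 0.0523), without the second PC-3 array (0.0939) and without the first or the second TEM2-5 array (0.121 and 0.0807). The fifth RBM47 probe set, 229421_s_at, stayed between 8.16 and 115 on the 6 arrays and was not tested.

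MBNL3, a muscleblind protein expressed in fewer tissues than MBNL1, moved against its paralog and fell with the epithelial genes. Its tested probe set, 229498_at, read 1774 and 1543 in PC-3, 511 and 434 in TEM4-18, and 1148 and 912 in TEM2-5. The 3 lines did not overlap, TEM4-18 keeping 28.5% of the PC-3 mean and TEM2-5 keeping 62.1%. In TEM4-18 the log2 fold change was -1.71 ± 0.18 (adjusted p = 6.95e-05). In TEM2-5 it was -0.67 ± 0.18 (adjusted p = 0.0306), and this call was lost when any 1 of the PC-3 or TEM2-5 arrays was left out, with changes from -0.82 to -0.51 and adjusted p from 0.0523 to 0.207, and also without the filter, without the trend and with probe sets averaged (adjusted p from 0.0679 to 0.0829). The derived lines differed by -1.04 ± 0.18 (adjusted p = 0.0173), a call lost without the second TEM4-18 array (-0.94, adjusted p = 0.105) or the first TEM2-5 array (-0.88, adjusted p = 0.187), without the filter (adjusted p = 0.0621) or without the mean-variance trend (adjusted p = 0.134). Averaged over all 3 MBNL3 probe sets, the difference between the derived lines was -0.42 (adjusted p = 0.509). The other 2 MBNL3 probe sets did not pass the filter: 219814_at read 353 and 217 in PC-3 against 71.4 and 139 in TEM4-18 and 148 and 102 in TEM2-5. The last, 230113_at, read 167 and 292 in PC-3, 188 and 80.0 in TEM4-18, and 146 and 113 in TEM2-5, so PC-3 and TEM4-18 overlapped on it.

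RBFOX2, whose protein binds GCAUG elements beside regulated exons, gave the largest rise of the 7 genes. Its brightest probe set, 216215_s_at, read 3614 and 3066 in PC-3, 9072 and 8506 in TEM4-18, and 8208 and 7705 in TEM2-5. The derived lines did not overlap with PC-3 and stood at 263% and 238% of its mean. The log2 fold change was 1.39 ± 0.10 in TEM4-18 (adjusted p = 5.75e-06) and 1.24 ± 0.10 in TEM2-5 (adjusted p = 3.77e-05), ranks 193 and 161 from the highest of 13557 genes. The derived lines differed by 0.14 ± 0.10 (adjusted p = 0.656), with a 95% interval from -0.086 to 0.37. The second probe set, 212104_s_at, read 3749 and 3050.3 in PC-3, 5665 and 5960.1 in TEM4-18, and 5346 and 5320 in TEM2-5. Its changes were 0.77 in TEM4-18 (adjusted p = 5.78e-04) and 0.65 in TEM2-5 (adjusted p = 0.00321). The third, 213901_x_at, read 3981 and 3662 in PC-3, 4694 and 4856 in TEM4-18, and 5565 and 5474 in TEM2-5. It thus rose by less, by 0.32 in TEM4-18 (adjusted p = 0.0325) and 0.53 in TEM2-5 (adjusted p = 0.00421). The TEM4-18 call of 213901_x_at was lost in 7 alternatives, among them the fits without the second PC-3 array or without either TEM4-18 array. The remaining RBFOX2 probe set, 213898_at, ranged from 7.54 to 180 and was not tested; averaging it with the others gave a TEM4-18 change of 0.36 for the gene (adjusted p = 0.0909).

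QKI, the quaking protein that regulates exons and circular RNA formation in mesenchymal cells, rose by a small amount. Its brightest probe set, 212265_at, read 18751 and 17406 in PC-3, 22096 and 22405 in TEM4-18, and 21873 and 23238 in TEM2-5. The derived lines lay above PC-3 without overlap and overlapped with each other. The log2 fold change was 0.30 ± 0.07 in TEM4-18 (adjusted p = 0.0102) and 0.32 ± 0.07 in TEM2-5 (adjusted p = 0.0119). Between the derived lines the difference was -0.02, with a 95% interval from -0.18 to 0.14 (adjusted p = 0.953). QKI had 8 tested probe sets, of which 4 were called higher in TEM4-18 and 6 in TEM2-5, and 0 were called lower. None of these calls held in every alternative. Those of 1555154_a_at were lost in 8 of 14 in TEM4-18 and in 10 of 14 in TEM2-5. Averaged over its probe sets, QKI was not called, at 0.33 in TEM4-18 (limma, adjusted p = 0.0761) and 0.34 in TEM2-5 (adjusted p = 0.0945). The largest called change was on 212636_at, which read 1189 and 908 in PC-3, 1681 and 1559 in TEM4-18, and 1508 and 1923 in TEM2-5, a change of 0.61 and 0.69 in TEM4-18 and TEM2-5. Both calls of 212636_at were lost without the filter (limma, adjusted p = 0.0515 and 0.0506) and without the mean-variance trend. Without the second PC-3 array its changes were 0.43 and 0.50. The probe set 228540_at read 212 and 315 in PC-3, 183 and 132 in TEM4-18, and 307 and 276 in TEM2-5, and it was not called (-0.58 in TEM4-18, adjusted p = 0.292). Of the 2 untested QKI probe sets, 236154_at read 81.4 and 109 in PC-3, 278 and 261 in TEM4-18, and 129 and 134 in TEM2-5, highest in TEM4-18 without overlap, and 214541_s_at stayed between 10.6 and 33.8. The brightest QKI probe set lost both calls without the second PC-3 array (adjusted p = 0.0711 in TEM4-18 and 0.0816 in TEM2-5) and without the mean-variance trend. It also lost the TEM4-18 call without the second TEM4-18 array (0.29, adjusted p = 0.0581) and the TEM2-5 call without the second TEM2-5 array (0.28, adjusted p = 0.0938).

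MBNL1, the main muscleblind protein in most tissues, rose in both derived lines. Its brightest probe set, 201153_s_at, read 16983 and 15955 in PC-3, 21969 and 22219 in TEM4-18, and 21338 and 24045 in TEM2-5. All 4 derived-line arrays lay above both PC-3 arrays. The log2 fold change was 0.42 ± 0.08 in TEM4-18 (adjusted p = 0.00234) and 0.46 ± 0.08 in TEM2-5 (adjusted p = 0.00267). The difference between the derived lines was -0.04, with a 95% interval from -0.21 to 0.14 (adjusted p = 0.910). The probe set with the largest rise, 1555594_a_at, read 2038 and 1924 in PC-3, 3612 and 3472 in TEM4-18, and 3029 and 3407 in TEM2-5, a change of 0.82 and 0.68. MBNL1 had 6 tested probe sets, and 4 were called higher in each line. The remaining 1558111_at and 233015_at gave changes from 0.17 to 0.28 with adjusted p from 0.253 to 0.780, and 215663_at, between 29.5 and 137, was not tested. Without the mean-variance trend the calls of 201153_s_at were lost (adjusted p = 0.0687 in TEM4-18 and 0.0848 in TEM2-5).

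PTBP1, the polypyrimidine tract-binding repressor, was not called in any comparison. Its brightest probe set, 211270_x_at, read 20221 and 20869 in PC-3, 21346 and 21602 in TEM4-18, and 21275 and 22209 in TEM2-5. The PC-3 arrays were the lowest 2, but by little. The change was 0.06 ± 0.07 in TEM4-18 (adjusted p = 0.539), with a 95% interval from -0.082 to 0.21, and 0.08 ± 0.07 in TEM2-5 (adjusted p = 0.463), with an interval from -0.065 to 0.23. The intervals of this probe set leave out changes of the size seen on the brightest RBFOX2 probe set. The dimmer 226491_x_at read 317 and 460 in PC-3, 406 and 557 in TEM4-18, and 489 and 686 in TEM2-5, so TEM4-18 overlapped with both other lines and both TEM2-5 arrays lay above PC-3. Its changes were 0.28 in TEM4-18 (adjusted p = 0.514), with a 95% interval from -0.33 to 0.89, and 0.54 in TEM2-5 (adjusted p = 0.224), with an interval from -0.070 to 1.15. These wider intervals include changes of the size seen on the other tested RBFOX2 probe sets. The other 2 PTBP1 probe sets read between 21.3 and 208 and were not tested.

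**Figure D2:**
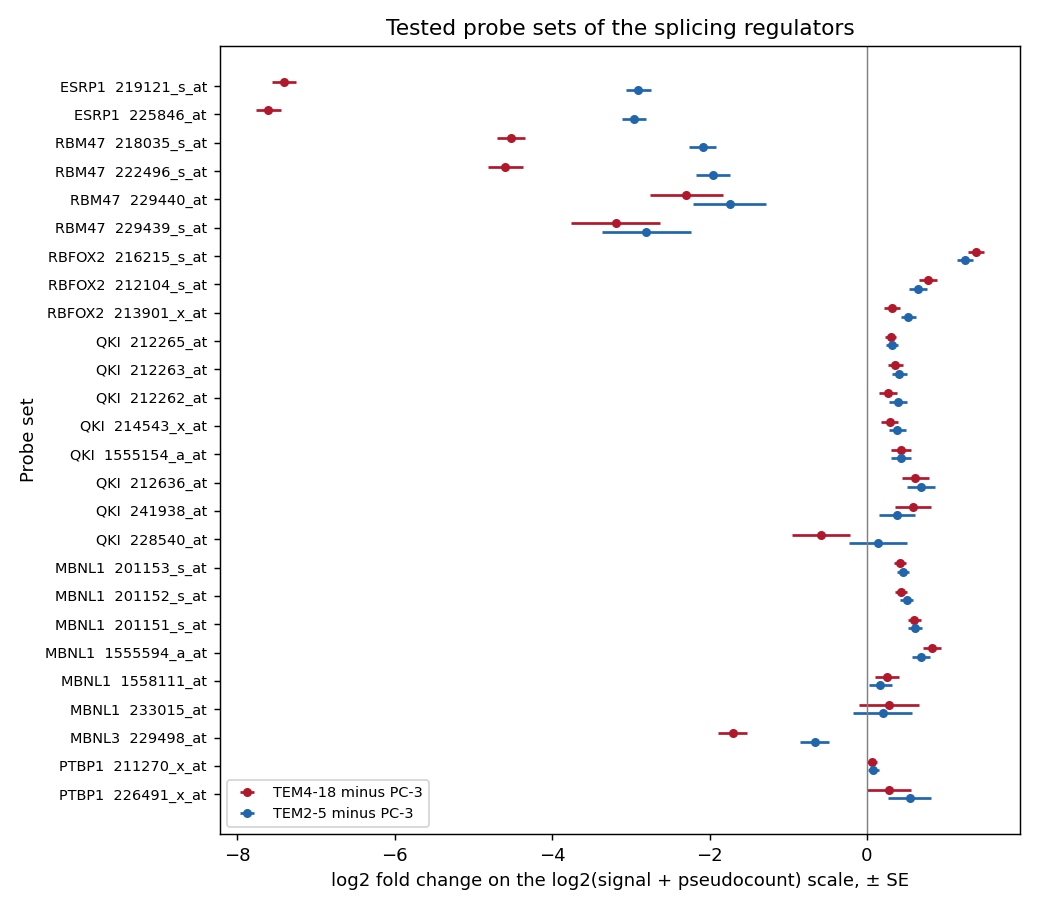
Log2 fold change against PC-3 (horizontal axis, on the log2(signal + pseudocount) scale) of the 26 tested probe sets, with SE bars, for TEM4-18 and TEM2-5. The ESRP1, RBM47 and MBNL3 probe sets lie left of 0, with the TEM2-5 point nearer to 0 than the TEM4-18 point, whereas the RBFOX2, MBNL1 and most QKI probe sets lie right of 0 with the points of the lines close together.

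Of the 6 regulators with several tested probe sets, 0 had a probe set called higher and another called lower in the same comparison. Over all 6920 genes with several tested probe sets, 2.66% did so in TEM4-18 and 1.13% in TEM2-5, so a count of 0 among 6 genes shows nothing particular to the regulators. For each regulator called against PC-3, the 3 genes nearest in pattern were found by the distance over the 6 arrays of log2 values, each taken relative to the PC-3 mean. ESRP1 was nearest to CDH1, which encodes the junction protein E-cadherin (distance 0.571), then to LCN2 (1.14) and CALB1 (1.36). RBM47 was nearest to EPCAM, an epithelial surface glycoprotein (distance 0.132), then to TNFSF15 (0.313) and TMT1A (0.346). MBNL3 was nearest to COL4A6, a basement membrane collagen chain (0.193), CLDN1, a tight junction protein (0.252), and ADGRG6 (0.290). RBFOX2 was nearest to MAX (0.138), MGAT5 (0.152) and TTC7B (0.212). QKI lay nearest to GNE (0.0644), CETN3 (0.0712) and RAB35 (0.0813), and MBNL1 to RPL23AP32 (0.0825), SEPTIN6 (0.0839) and LZTFL1 (0.0854). Genes with small changes lie close to many others, so the short distances of QKI and MBNL1 do not rank them against ESRP1. The log2 values include the pseudocount of 51.8, which compresses dim signals. In TEM4-18 the means of ESRP1 (28.1), CDH1 (41.8) and TMT1A (11.7) lay below it. Whether these neighbours hold at another pseudocount was not tested.

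Other splicing and RNA-binding genes were read from 4 lists of 82 genes, of which 69 were tested by their brightest probe set. The lists were also chosen with earlier results known. In TEM4-18, 17 of the 69 rose and 6 fell, where 13.3% of all tested genes were called higher and 16.1% lower, and the median of the log2 fold changes was 0.013 beside -0.037 over all genes. In TEM2-5, 11 rose and 3 fell, where 9.04% of all genes were higher and 10.1% lower, with a median of 0.057 beside -0.024. Between the derived lines 0 were higher and 1 was lower in TEM4-18, beside 0.494% and 2.27% of all genes. Without the mean-variance trend the counts in all were 10 in TEM4-18 and 7 in TEM2-5. Leaving out the second PC-3 array or either TEM4-18 array reduced the TEM4-18 count to between 13 and 15, and leaving out either TEM2-5 array reduced the TEM2-5 count to 8 or 9.

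The medians in TEM4-18 and TEM2-5 were 0.15 and 0.21 for paralogs of the members, 0.00016 and 0.0014 for hnRNP genes, -0.0060 and 0.12 for SR proteins and kinases, and 0.12 and 0.12 for the other factors. Among the paralogs, 1 of 5 tested genes was higher in TEM4-18 and 0 in TEM2-5, beside 13.3% and 9.04% of all genes. PTBP2, the neuronal form of PTBP1, rose by 0.82 in TEM4-18 (adjusted p = 0.00216), from a mean signal of 1853 to 3292. In TEM2-5 its change was 0.30 (adjusted p = 0.204), and the difference between the derived lines was not past the threshold (adjusted p = 0.138). The hnRNP list, RNA-binding proteins that mostly repress exons, had 3 higher and 1 lower of 21 tested in TEM4-18 (13.3% and 16.1% over all genes), and 4 higher and 1 lower in TEM2-5 (9.04% and 10.1%). HNRNPA3 rose by 1.41 and 1.11, HNRNPH3 by 0.99 and 0.78 and HNRNPA0 by 0.81 and 0.56 in TEM4-18 and TEM2-5. HNRNPAB was the lower gene in TEM4-18 (-0.19), HNRNPH1 was the lower gene in TEM2-5 (-0.22) and HNRNPL was higher in TEM2-5 (0.30). These 3 calls were each lost in several of the fits that left out an array, whereas those of HNRNPA3, HNRNPH3 and HNRNPA0 held in every alternative.

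Of 17 tested SR proteins, which promote exon inclusion, and their kinases, 4 rose and 1 fell in TEM4-18, beside 13.3% and 16.1% of all genes, and 1 rose and 1 fell in TEM2-5, beside 9.04% and 10.1%. TRA2A fell in both lines, by 0.82 in TEM4-18 and 0.55 in TEM2-5 on the log2 scale. SRSF6 rose by 0.59 in TEM4-18, TRA2B and the kinase SRPK1 by 0.33 each, and SRSF5 by 0.27. SRSF5 also rose in TEM2-5, by 0.34. The SRSF5 calls were lost in 6 of 15 alternatives in TEM4-18 and in 4 of 15 in TEM2-5. Among 26 other tissue or transition-linked factors, 9 rose and 4 fell in TEM4-18, and 6 rose and 1 fell in TEM2-5, to be set against the same shares. The RNA helicase DDX5 rose by 1.54 and 1.37, the neuronal factor NOVA1 by 1.20 and 1.10, CPEB1 by 0.91 and 1.15, and the muscle factor RBM24 by 0.87 and 0.71. The 4 that fell in TEM4-18 were ELAVL2 (-0.77), CPEB2 (-0.66), TIAL1 (-0.40) and AKAP8 (-0.34). ELAVL2 was the 1 that fell in TEM2-5 (-0.36). The AKAP8 call was lost in 9 of 15 alternatives, and those of CPEB2 and TIAL1 in 4 each. For ELAVL2 the TEM2-5 call was lost in 5 of 15. ZFP36L1 was the 1 listed gene that differed between the derived lines (-0.46, adjusted p = 0.0494), and this call was lost without any 1 of the 4 derived-line arrays. HNRNPH1, SRSF5 in TEM4-18, ELAVL2, CPEB2, TIAL1 and AKAP8 were named after their values were seen. The calls of TRA2A in TEM4-18 and of DDX5, RBM24 and PTBP2 where called held in every alternative. Those of CPEB1 were lost in 5 of 14 alternatives in TEM4-18 and in 4 of 14 in TEM2-5. Both CPEB1 calls were lost without the filter and without the second PC-3 array.

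**Figure D3:**
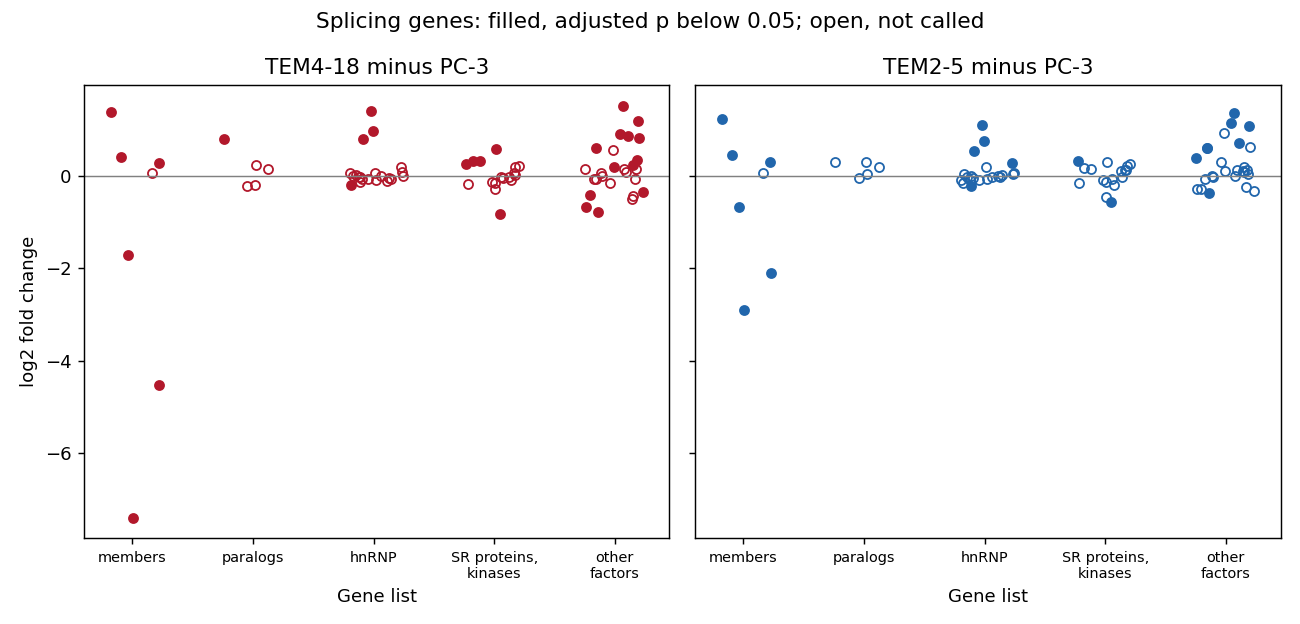
Log2 fold change against PC-3 (vertical axis) of the 7 regulators and of the 69 tested genes in 4 lists of other splicing and RNA-binding genes, 1 point per gene by its brightest probe set, in TEM4-18 and TEM2-5. Filled points passed an adjusted p of 0.05; ESRP1 at -7.41 and RBM47 at -4.52 lie below every listed gene, the lowest of which is TRA2A at -0.82 in TEM4-18.

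The arrays measure 3' parts of transcripts and were not designed to count exons, so exon choice was read only indirectly, from genes whose probe sets moved in opposite directions. Among 35 genes known for exons that switch in the transition, 30 were tested by their brightest probe set, and 4 rose and 6 fell in TEM4-18 and 5 rose and 5 fell in TEM2-5, with medians of 0.013 and 0.027. Over all genes 13.3% were higher and 16.1% lower in TEM4-18 and 9.04% and 10.1% in TEM2-5, so the TEM4-18 counts of this list lay near the background. Among the called genes EPB41L5 changed most, then the transcription factor subunit NFYA (0.79 and 0.74 in TEM4-18 and TEM2-5), the Wnt pathway factor TCF7L2 (-0.72 and -0.48) and the myosin phosphatase partner MPRIP (-0.51 and -0.38), and SPAG9 rose by 0.54 in TEM2-5. The TEM2-5 call of TCF7L2 was lost in 6 of 15 alternatives. Of the 25 with several tested probe sets, 3 had opposite calls in TEM4-18 (12.0%) and 2 in TEM2-5 (8.0%), beside 184 and 78 of 6920 genes overall. The shares were not matched for the number of probe sets per gene, and more probe sets give more chances of opposite calls. They therefore do not test whether the list differs from other genes. The 3 genes were CD44, EPB41L5 and MACF1, and CD44 and EPB41L5 also had opposite calls in TEM2-5. In TEM4-18 the lower call of MACF1 was near the threshold (-0.53, limma, adjusted p = 0.0462), and its brightest probe set rose by 0.34 (adjusted p = 0.0187). Whether the MACF1 calls hold in the alternatives was not tested.

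CD44, a hyaluronan receptor whose variable exons are retained with ESRP1, had 12 tested probe sets. Its probe set 229221_at read 1765 and 2219 in PC-3, 352 and 108 in TEM4-18, and 642 and 556 in TEM2-5. The log2 fold change was -3.0 ± 0.36 in TEM4-18 (adjusted p = 1.50e-04) and -1.65 ± 0.36 in TEM2-5 (adjusted p = 0.0106), and the TEM2-5 call was lost without the second PC-3 array or the second TEM2-5 array. The probe sets 204490_s_at, 209835_x_at, 212014_x_at and 217523_at were also called lower in both derived lines, with 217523_at at -1.34 and -1.07. In TEM4-18 alone, 1557905_s_at and 210916_s_at were called lower. Both calls of 217523_at held in every alternative. The TEM2-5 calls of 204490_s_at, 209835_x_at and 212014_x_at were lost without the mean-variance trend. Those of 204490_s_at and 212014_x_at were also lost without the filter and in fits that left out an array. Without the trend, 212014_x_at, 1557905_s_at and 210916_s_at also lost their TEM4-18 calls. Only the brightest probe set, 212063_at, was called higher. It read 21518 and 22906 in PC-3, 29482 and 30447 in TEM4-18, and 24925 and 28383 in TEM2-5. It rose by 0.43 ± 0.08 in TEM4-18 (adjusted p = 0.00203) and by 0.26 in TEM2-5 (adjusted p = 0.0430). The TEM2-5 rise was lost without either PC-3 array, either TEM4-18 array or the second TEM2-5 array.

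EPB41L5, a FERM-domain protein of cell junctions, gave the larger split. Its probe set 229292_at read 2671 and 2322 in PC-3, 227 and 236 in TEM4-18, and 708 and 760.1 in TEM2-5, with changes of -3.16 ± 0.18 (adjusted p = 7.70e-07) and -1.69 ± 0.18 (adjusted p = 1.47e-04). Its probe set 225855_at read 790.3 and 621 in PC-3, 1051 and 1012 in TEM4-18, and 1322 and 1370.2 in TEM2-5. Those signals rose by 0.52 in TEM4-18 (adjusted p = 0.0424) and 0.89 in TEM2-5 (adjusted p = 0.00504). The TEM4-18 rise was lost in every fit that left out an array except the one without the first PC-3 array. Between the derived lines, 229292_at differed by -1.47 (limma, adjusted p = 0.00168), with TEM4-18 lower. Averaged over the EPB41L5 probe sets, this difference was -0.69 (adjusted p = 0.110) and the TEM2-5 change was -0.39 (adjusted p = 0.177). Neither average was past the threshold, while the lower call in TEM4-18 held. Whether the opposing probe sets of CD44, EPB41L5 and MACF1 read different isoforms was not tested.

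**Figure D4:**
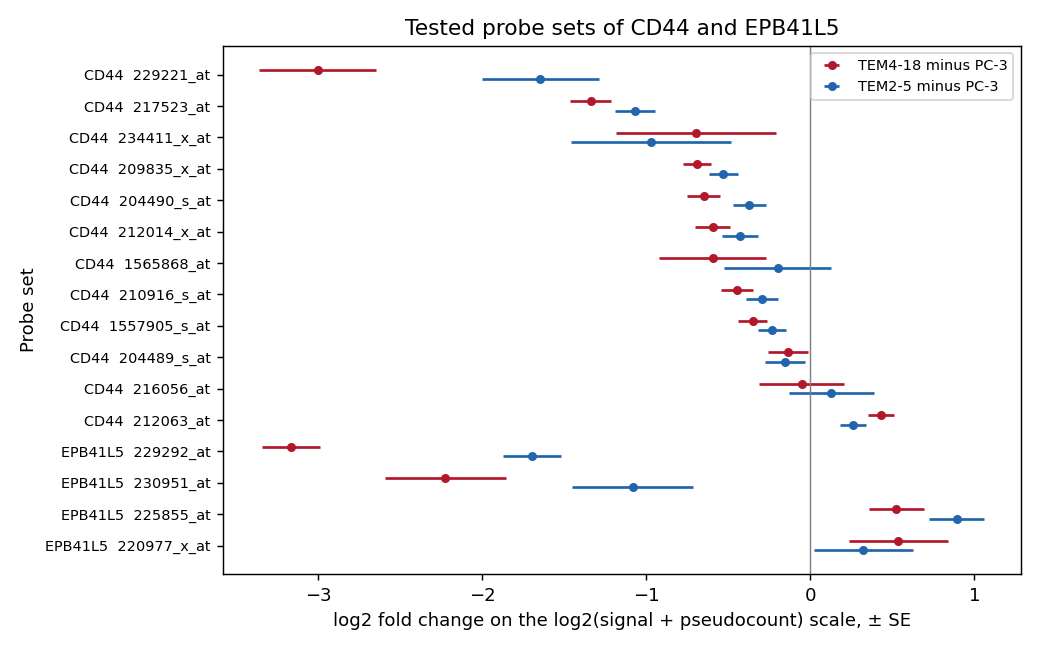
Log2 fold change against PC-3 (horizontal axis, with SE bars) of every tested probe set of CD44 and EPB41L5 in TEM4-18 and TEM2-5. The lowest values are -3.0 for CD44 229221_at and -3.16 for EPB41L5 229292_at in TEM4-18, while CD44 212063_at and EPB41L5 225855_at lie right of 0.

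Marker genes were read on the same arrays. All 5 epithelial line markers, the keratins KRT8, KRT18 and KRT19 with EPCAM and CDH1, were called lower in both derived lines, and their summed signal was 174730.0 to 181500.0 in PC-3, 62193 to 68654 in TEM4-18 and 75467 to 82589 in TEM2-5. The summed signal of 14 endothelial markers was 3231 to 3388 in PC-3, 4457 to 5776 in TEM4-18 and 4637 to 5071 in TEM2-5. Of 6 tested endothelial markers, 3 were higher in TEM4-18 and 2 in TEM2-5. KDR, a receptor of vascular endothelial growth factor, rose by 2.40 in TEM4-18 and 2.29 in TEM2-5, whereas CDH5, TIE1 and PLVAP in TEM4-18 and TIE1 in TEM2-5 had means below the pseudocount. The summed signal of 10 fibroblast markers was 9526 to 11160.0 in PC-3, 20479 to 23645 in TEM4-18 and 22422 to 25934 in TEM2-5, led by the collagen gene COL1A1, while LUM and POSTN in TEM4-18 and PDGFRB and FAP in TEM2-5 lay below the pseudocount. Of 6 tested fibroblast markers, 1 (COL1A1, 1.44) was higher and 2 (LUM, -3.18, and PDGFRA, -0.77) were lower in TEM4-18, with a median of -0.52, and 2 (COL1A1, 1.39, and PDGFRA, 1.32) were higher and 0 lower in TEM2-5, with a median of 0.69. The PDGFRA call was lost in 5 of 15 alternatives in TEM4-18 and in 1 of 15 in TEM2-5. The size of the LUM change depends on the pseudocount, since its TEM4-18 mean lay below it. Over all tested genes, 13.3% were called higher and 16.1% lower in TEM4-18, and 9.04% and 10.1% in TEM2-5. The part of these marker levels in the changes of the splicing regulators was not tested.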

How the data were processed

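Expression was measured on 6 Affymetrix arrays of 54675 probe sets. The deposited values are MAS5 signal intensities, per the submitters' processing notes, and the authors' deposited intensity tables were used unchanged. Gene symbols came from the platform annotation: 41097 probe sets had 1 symbol, 1801 several and 11777 none. Signals were taken as log2(signal + 51.8), and 32576 probe sets with a mean above 177.8, the 40th percentile, were tested in all 6 arrays with limma 3.58.1 (lmFit and eBayes with a mean-variance trend, R 4.3.3), two-sided, with Benjamini-Hochberg adjustment and a threshold of 0.05. The fit had 3 residual degrees of freedom before moderation, and the median residual SD was 0.169 log2 units. The script was tested on simulated data. The labels do not say whether the arrays of a line represent separate cultures, so p-values measure only the spread between these arrays.

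Genes were summarised by their brightest tested probe set. The members and lists were chosen with earlier results of these data known. Named genes were all members, up to 4 called genes per list and comparison with the largest change, and the 3 nearest genes to each called member. Probe sets were not compared with each other in level, since their brightness differs by design. The alternatives were a pseudocount of 1 or 4 times the main one, no filter or a 60th percentile filter, quantile normalization, no trend, the replicate number as a block, only the 2 lines compared, each array left out, and averaged probe sets. One label of TEM2-5 gives its second array the number 1, and the titles were used. Promoter windows came from RefSeq (GRCh38.p14), with chromosome 8 not used here, and were searched on both strands.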

Additional observations from a re-analysis of the deposited data

Results flagged for a closer look

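For 3 of the splicing regulators the change against PC-3 differed between the derived lines by the contrast of TEM4-18 with TEM2-5 in limma, in each case with TEM4-18 lower: ESRP1 by -4.51, RBM47 by -2.44 and MBNL3 by -1.04 on the log2 scale. Between the lowest and the highest of the fits that left out 1 array, the ESRP1 difference ranged from -4.62 to -4.40, the RBM47 difference from -2.59 to -2.28 and the MBNL3 difference from -1.20 to -0.88. The size of the ESRP1 difference depends on the pseudocount, since its TEM4-18 signals lay below it: with a pseudocount of 1 it was -5.95 on 219121_s_at and -6.95 on 225846_at. The MBNL3 difference was -0.42 (limma, adjusted p = 0.509) when its 3 probe sets were averaged, and the call was also lost without the filter, without the mean-variance trend, without the second TEM4-18 array and without the first TEM2-5 array.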

How the results depend on the processing

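The 63 values of the splicing regulators were read again under each alternative in which they were tested. This gave 882 readings, which share the same few fits and arrays. Of these, 792 kept the direction and the side of the threshold, 83 lost a call, 1 gained one (QKI 241938_at in TEM4-18 without the first PC-3 array) and 6 changed sign. Of 43 called values, 21 held in every alternative in which they were tested, among them all values of both ESRP1 probe sets and of the 2 brightest RBM47 probe sets. Of the 81 called values of listed genes, 43 held in every alternative in which they were tested. None of the sign changes was of a called value of a regulator. They came with 1 array left out, for MBNL1 1558111_at (-0.016 to 0.35) and QKI 228540_at (-0.097 to 0.37) in TEM2-5 and, between the derived lines, for the brightest probe sets of MBNL1 (-0.12 to 0.050), QKI (-0.063 to 0.025) and PTBP1 (-0.048 to 0.013), and with probe sets averaged for RBFOX2 between the derived lines (-0.23). Averaging also turned HNRNPH1 in TEM2-5 (0.17) and TIAL1 in TEM4-18 (0.40).

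Without the mean-variance trend the counts fell to 11 of 18 regulator probe sets in TEM4-18 and 9 of 20 in TEM2-5, to 10 of 23 and 7 of 14 listed genes, and to 5409 of 8398, 2356 of 5341 and 127 of 584 probe sets in TEM4-18, in TEM2-5 and between the derived lines. Without the filter, 299 probe sets differed between the derived lines. The 1 listed gene that differed between them became 0 with a pseudocount of 1, no filter, quantile normalization, no trend or averaging, and 2 with the 60th percentile filter or the replicate block. Leaving out 1 array gave 12 to 16, 11 to 19 and 4 to 5 regulator probe sets in the 3 comparisons, 13 to 20, 8 to 13 and 0 to 1 listed genes, and 5993 to 7753, 2808 to 5152 and 213 to 563 probe sets. Same-numbered arrays deviated together only weakly (correlations of 0.065, 0.083 and 0.097), so the numbers were not taken as pairs. With the replicate number as a block, 18, 20 and 5 regulator probe sets passed, and 23 listed genes passed in TEM2-5. The cause of these shifts was not tested. With 2 arrays a line, differences near the spread between arrays could not be detected, and dim probe sets were the least precise.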
